A study of Homo sapiens with 9 samples.

Results

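Doxorubicin-induced senescent HCA2 fibroblasts sorted as PD-L1-negative were compared with normal proliferating HCA2 fibroblasts, 3 libraries each and 6 of the 9 libraries in the series. HCA2 is a line of human foreskin fibroblasts. The senescent cells had received 100 nM doxorubicin, which poisons topoisomerase II and breaks DNA, for 24 hours, and were then kept in 100 nM BI-2536, which blocks PLK1, a kinase that cells need to pass through mitosis, for 12 days in total. Per the labels, the cells were sorted by PD-L1, the product of CD274 and ligand of the T cell receptor PD-1. The normal cells are labelled proliferative and PD-L1 positive, and whether they were sorted is not given in the sources used here. All groups came from 1 line grown in the same medium with serum, so genotype is shared, whereas doxorubicin and BI-2536 were both given to the senescent cells and their parts cannot be told apart. The labels do not say that replicates came from separate cultures, and p-values therefore measure the spread between these libraries, which may be technical.

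Levels are FPKM (fragments scaled to transcript length and to the mapped fragments of the library), summed over the RefSeq transcript rows of each gene symbol. Of 26196 symbols, 11775 averaged 1 FPKM or more across both groups and were tested. Of these, 157 were below 1 FPKM in every normal library and 145 in every senescent PD-L1-negative library. Such genes passed only through the group where they were high, so counts within lists describe the members that passed. Every log2 difference is senescent PD-L1-negative minus normal after 0.5 was added to each FPKM, and it is therefore too small for genes with very low levels. A gene was called at a Benjamini-Hochberg adjusted p under 0.05 in limma, with the p adjusted over all 11775 genes.

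Cellular senescence is a lasting exit from the cell cycle that follows DNA damage, telomere loss or oncogene activity. The p53 and p21 pathway holds the arrest, the nuclear lamina loses lamin B1, lysosomes expand, and the cells release cytokines, proteases, growth factor regulators and matrix proteins, together called the senescence-associated secretory phenotype. Fibroblasts are the cells in which most of this biology was worked out, and their secretome bears on wound healing, fibrosis and the growth of neighbouring cells.

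The 6 libraries held an estimated 12100000 to 17700000 fragments, and 11265 to 11498 of the tested genes reached an FPKM of 1 in each. Log2 levels correlated across genes at 0.98 to 0.9871 among the senescent libraries and at 0.9414 to 0.9769 among the normal ones. The line's label held against its markers: 15 of 16 fibroblast markers had a mean of at least 1 FPKM, and their summed level was 15847 to 18052 in senescent and 10593 to 13496 in normal libraries. Of 11 keratinocyte markers 7, including KRT5, TP63 and CDH1, were below 0.1 FPKM in all 6 libraries, as were 7 of 10 endothelial, 6 of 11 leukocyte and 3 of 7 melanocyte markers. Summed levels, with the senescent range first, were 14.1 to 16.6 against 18.0 to 19.4 FPKM for keratinocyte markers (KRT10 the highest, mean 16.6). For endothelial markers they were 20.1 to 26.2 against 35.5 to 48.2 (FLT1 the highest). Leukocyte markers had 54.2 to 63.3 against 32.6 to 35.1 (the lysosomal protein CD68 the highest). Melanocyte markers had 11.5 to 12.2 against 4.86 to 8.81 (MITF the highest). Pericyte and smooth muscle markers, which fibroblasts share, summed to 128 to 152 FPKM in senescent and 172 to 326 in normal libraries. Members of that list were called in both directions. ACTA2, the highest of them, was not called, at 90.9, 74.1 and 75.7 FPKM in senescent libraries against 57.5, 85.7 and 199 in normal ones. In these bulk libraries a change in the share of cells of a kind and a change in RNA per cell cannot be told apart.

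CD274 had 0.677, 0.708 and 0.909 FPKM in senescent PD-L1-negative replicates 1, 2 and 3, against 6.23, 3.48 and 2.89 in normal replicates 1, 2 and 3. Every normal library was above every senescent one, which is the order of the PD-L1 labels of these 2 groups. The senescent PD-L1-positive libraries, at 1.23, 1.32 and 1.38 FPKM, were also below every normal library, so levels did not follow the labels alone. The senescent group was selected as PD-L1-negative, so the tests that follow give no support apart from that selection. The labels concern PD-L1 as sorted, whereas these values are RNA. The means were 0.765 ± 0.126 and 4.20 ± 1.78 FPKM (SD, n = 3 each), and the log2 difference was −1.83 (SE 0.26, adjusted p = 0.00253). The exact two-sided permutation test of 3 against 3 libraries gave p = 0.1, the smallest this design allows.

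Of the 11775 genes, 5001 were called, which is 42.5%: 2137 higher (18.1%) and 2864 lower (24.3%) in senescent PD-L1-negative cells. These shares are the background for every count that follows. The median log2 difference was −0.07, with the middle 50% of genes between −0.42 and 0.31. A called difference of at least 2-fold was found for 672 genes higher (5.71%) and 773 lower (6.56%). Of those lower, 572 were in none of the lists of mitosis, DNA replication and recombination. These lists do not hold every gene of the cell cycle. TRIP13, which acts on the mitotic checkpoint complex, was among the 572, so that number does not count genes unrelated to the cell cycle. The groups of libraries did not overlap for 6752 genes (57.3%), and for 4973 of the 5001 called genes. Rescaling the libraries moved the balance of directions: 42.7% of calls were higher as deposited, 49.8% with median-of-ratios or quantile scaling, and 31.1% when each library was set to an equal sum over protein-coding rows, which placed the median of all genes at −0.17. Calls fell to 1283 higher and 1638 lower without PD-L1-negative replicate 1, and to 1300 higher and 1701 lower without normal replicate 2.

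The 12 largest called rises outside the cell cycle lists included genes of metabolism, complement, prostanoids and matrix, together with C11orf96 and a histone gene. TXNIP, the arrestin-family protein that binds thioredoxin and limits glucose uptake, had 57.1, 90.7 and 45.9 FPKM in senescent PD-L1-negative libraries, against 3.70, 1.96 and 0.797 in normal ones. Its lowest senescent library was above its highest normal library more than 10-fold, and the log2 difference was 4.72 (SE 0.43, adjusted p = 0.000762). C3, the central component of complement, had 110.4, 90.4 and 107 FPKM in senescent libraries, against 3.01, 4.01 and 7.32 in normal ones (log2 difference 4.37, SE 0.27, adjusted p = 0.000286). PTGIS, prostacyclin synthase, had 127, 114 and 148 FPKM in senescent libraries, against 3.13, 7.96 and 13.8 in normal ones (log2 difference 4.09, SE 0.44). Both genes were high in all 3 senescent libraries and varied more among the normal ones, where replicate 3 was the highest.

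TNXB, the matrix glycoprotein tenascin-X, had 11.8, 10.5 and 17.1 FPKM in senescent libraries, against 0.213, 0.306 and 0.568 in normal ones (log2 difference 3.97, SE 0.23). CCND2, the G1 cyclin D2, had 7.24, 4.77 and 5.88 FPKM in senescent libraries, against 0.0245, 0.0750 and 0.0611 in normal ones (log2 difference 3.53, SE 0.18), so its normal libraries lay near 0. RARRES2, which encodes the chemoattractant and adipokine chemerin, averaged 23.9 ± 3.24 FPKM in senescent and 1.28 ± 0.944 in normal cells (SD, n = 3 each). COL15A1, a collagen of the basement membrane zone, averaged 14.6 ± 5.62 and 0.641 ± 0.428 FPKM, and SERPING1, the C1 inhibitor of complement, 124 ± 4.88 and 9.96 ± 3.12, senescent cells first in each. C11orf96, at rank 3 of the 12, had 88.2, 65.3 and 119.6 FPKM in senescent libraries, against 1.75, 3.19 and 15.9 in normal ones (log2 difference 4.11, SE 0.67). LYPD3, a GPI-anchored surface protein, and the histone gene HIST1H4H made up the rest with ANGPTL4. ANGPTL4, a secreted inhibitor of lipoprotein lipase, had 86.5, 101 and 162 FPKM in senescent libraries, against 3.64, 4.14 and 48.3 in normal ones. Normal replicate 3 thus came close to the senescent range, and its call (log2 difference 3.53, SE 0.88, adjusted p = 0.0173) was lost without PD-L1-negative replicate 2 (adjusted p = 0.0607), PD-L1-negative replicate 3 (0.0588) or normal replicate 2 (0.0658).

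The 12 largest called falls included structural proteins of the nucleus and cytoskeleton and the surface receptors OXTR and IL7R. LMNB1, lamin B1, had 3.23, 2.70 and 4.42 FPKM in senescent libraries, against 64.5, 43.2 and 18.4 in normal ones (log2 difference −3.28, SE 0.42, adjusted p = 0.00177). TMPO, the lamina-associated polypeptide 2, had 7.59, 6.70 and 8.92 FPKM in senescent libraries, against 87.9, 56.9 and 27.3 in normal ones (log2 difference −2.67, SE 0.38). In both genes the normal libraries ran in the same order, replicate 1 highest and replicate 3 lowest. KRT81, a hair keratin, had 0.535, 0.448 and 0.305 FPKM in senescent libraries, against 12.6, 7.90 and 8.69 in normal ones (log2 difference −3.44, SE 0.20). CRIP1, a small LIM-domain protein, had 3.09, 4.24 and 5.86 FPKM in senescent libraries, against 46.8, 42.2 and 38.2 in normal ones (log2 difference −3.17, SE 0.21). For KRT81 and CRIP1 the 3 normal libraries lay close together, unlike for LMNB1.

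OXTR, the oxytocin receptor, averaged 14.4 ± 1.66 FPKM in senescent and 119.8 ± 19.2 in normal cells, and IL7R, the receptor chain for interleukin-7, averaged 4.96 ± 0.826 and 34.3 ± 3.45 (SD, n = 3 each). ACTC1, cardiac alpha-actin, averaged 0.245 ± 0.120 FPKM in senescent and 5.90 ± 2.72 in normal cells. APOBEC3B, a DNA cytidine deaminase, averaged 1.93 ± 0.422 FPKM in senescent and 21.2 ± 9.32 in normal cells, and FABP5, a fatty acid carrier, 8.18 ± 0.874 and 58.8 ± 22.7. TM4SF1, a surface protein with 4 membrane spans, and TRIP13, an ATPase that takes apart the mitotic checkpoint complex, were lower by 2.83 and 2.68 on the log2 scale. KISS1, the kisspeptin precursor, had 2.10, 3.02 and 1.42 FPKM in senescent libraries, against 37.7, 18.9 and 5.46 in normal ones, and its call (log2 difference −2.66, adjusted p = 0.0132) was lost without normal replicate 2 (adjusted p = 0.0526). Genes with near-identical copies (TNXB, KRT81, APOBEC3B, the actins, histones, ferritins and MHC genes) carry the added uncertainty that reads may have been split between copies.

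**Figure D1:**
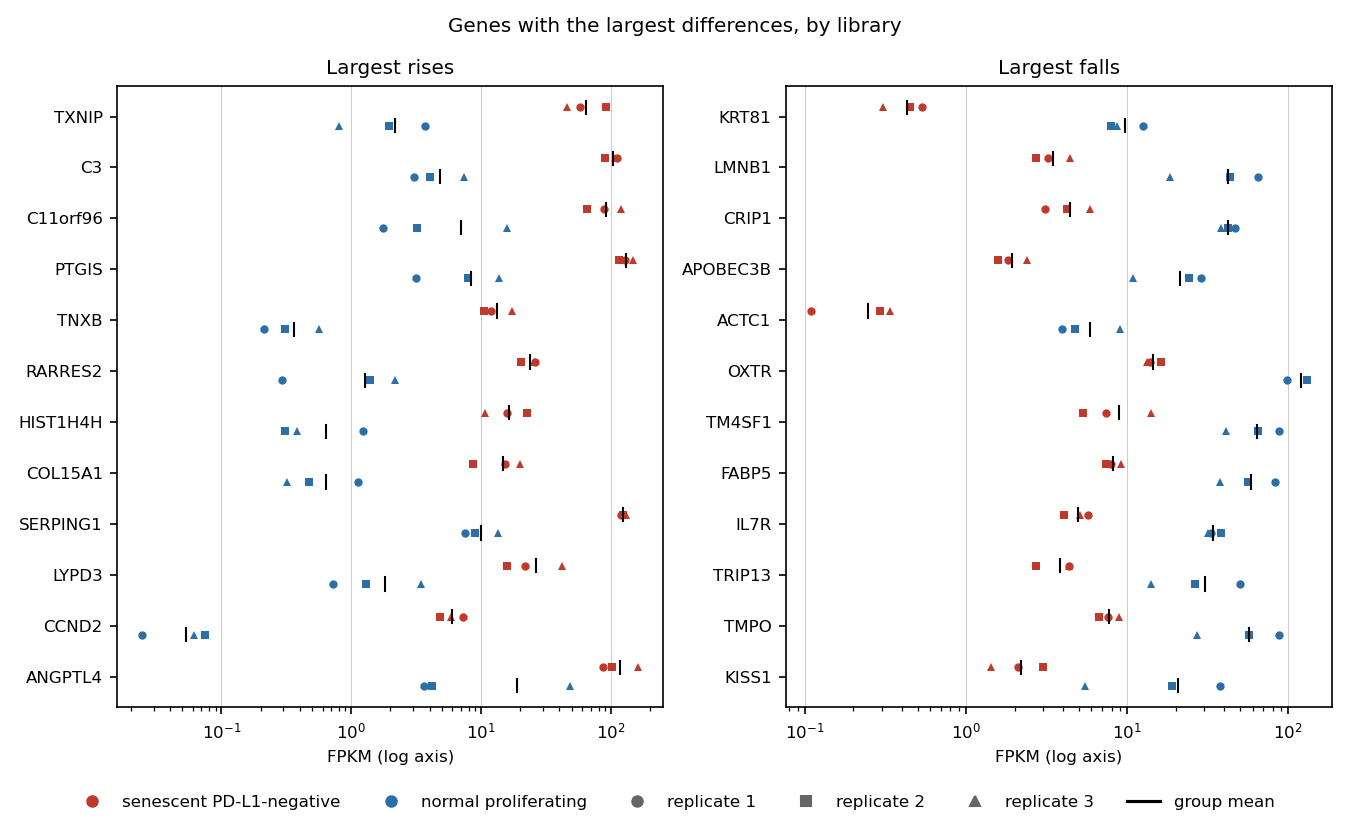
FPKM on a log axis of the 12 largest called rises and 12 largest called falls outside the cell cycle lists, with 1 point per library, senescent PD-L1-negative in red above normal proliferating in blue, and a black tick at each group mean. The genes were chosen among those whose groups do not overlap. Normal replicate 3 is the normal library nearest to the senescent ones for C3, PTGIS, ANGPTL4, LMNB1 and TMPO.

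The promoters of the 2 largest rises and 2 largest falls that the sequence table holds are shown to give the start-site context of genes that moved furthest apart. They are RefSeq windows of GRCh38.p14, 250 bases before to 50 after the start, 5′ to 3′ on the gene's strand, for TXNIP at chr1:145996530-145996829 (minus), TNXB at chr6:32109289-32109588 (minus), LMNB1 at chr5:126776373-126776672 (plus) and CRIP1 at chr14:105486636-105486935 (plus). Capitals mark matches on either strand to the 7 motifs spelled out after the sequences.
TXNIP: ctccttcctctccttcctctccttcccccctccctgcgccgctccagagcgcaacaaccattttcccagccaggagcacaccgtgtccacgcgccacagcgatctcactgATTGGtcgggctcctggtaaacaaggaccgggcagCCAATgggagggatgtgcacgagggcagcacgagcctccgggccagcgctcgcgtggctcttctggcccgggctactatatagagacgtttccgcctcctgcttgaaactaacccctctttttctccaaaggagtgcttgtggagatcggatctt
TNXB: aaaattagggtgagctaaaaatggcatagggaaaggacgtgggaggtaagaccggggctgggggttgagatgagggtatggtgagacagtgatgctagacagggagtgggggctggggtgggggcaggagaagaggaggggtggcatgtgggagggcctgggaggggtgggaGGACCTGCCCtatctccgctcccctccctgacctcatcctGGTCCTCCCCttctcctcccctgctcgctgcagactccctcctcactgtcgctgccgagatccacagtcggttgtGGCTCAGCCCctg
LMNB1: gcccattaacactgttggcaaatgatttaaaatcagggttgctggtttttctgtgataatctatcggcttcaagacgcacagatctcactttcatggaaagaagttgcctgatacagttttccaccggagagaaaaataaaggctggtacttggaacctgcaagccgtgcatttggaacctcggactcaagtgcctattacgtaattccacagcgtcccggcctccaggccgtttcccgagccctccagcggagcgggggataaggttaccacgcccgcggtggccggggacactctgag
CRIP1: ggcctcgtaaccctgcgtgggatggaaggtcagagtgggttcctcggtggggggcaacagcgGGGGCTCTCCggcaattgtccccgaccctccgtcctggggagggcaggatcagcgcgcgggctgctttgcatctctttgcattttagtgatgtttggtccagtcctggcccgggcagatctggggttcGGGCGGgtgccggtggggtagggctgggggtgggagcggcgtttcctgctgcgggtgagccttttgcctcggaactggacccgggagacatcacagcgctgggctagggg

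The TXNIP window holds CCAAT, the letters that NF-Y binds, at −140 on the minus and −105 on the plus strand, counted from the start site. The TNXB window holds 3 matches to a loose kappa-B pattern (3 G, 5 of any base, 2 C), the CRIP1 window 1 of these and 1 GC box, and the LMNB1 window no match to any of the 7. Of 35116 promoters of this length, 34.6% hold CCAAT, 58.7% the kappa-B pattern, 45.0% the GC box GGGCGG, 15.2% the cell cycle element TTTGAA, 11.5% the TATA box TATAAA, 7.26% the E-box CACGTG and 4.95% the AP-1 site TGACTCA. Among 9600 tested genes matched to a promoter (81.5%), TTTGAA, the letters of the cell cycle homology region, stood in 9.25% of genes called higher, 14.2% of genes called lower and 8.46% of genes not called. In the same order, CCAAT stood in 35.5%, 39.1% and 35.1%, the GC box in 67.9%, 70.4% and 69.3%, and the kappa-B pattern in 73.5%, 72.5% and 74.2%. The TATA box stood in 7.44%, 5.01% and 5.53%, the E-box in 9.13%, 11.5% and 9.24%, and the AP-1 site in 4.10%, 3.09% and 3.06%. These are letter matches and do not show a bound site.

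Among genes of the extracellular matrix, more were higher than lower in senescent PD-L1-negative cells. Of 52 tested matrix glycoproteins and proteoglycans (57 listed), 28 were higher and 6 lower (53.8% and 11.5%, against 18.1% and 24.3% of all genes), with a median log2 difference of 0.59 against −0.07 over all genes. Without PD-L1-negative replicate 1, 2 were lower. FBLN1, the elastic fibre protein fibulin-1, had 841, 809.8 and 1132 FPKM in senescent libraries, against 124, 161 and 188 in normal ones (log2 difference 2.56, SE 0.19). FMOD, the collagen-binding proteoglycan fibromodulin, averaged 24.1 ± 5.29 and 2.36 ± 0.985 FPKM, and EFEMP1, fibulin-3, 331 ± 43.6 and 58.7 ± 22.8, with senescent cells first. All 3 stood with TNXB at the head of the list, and their groups did not overlap, as in most called genes. MATN2, an adaptor of matrix filaments, went the other way, averaging 15.8 ± 2.32 FPKM in senescent and 27.4 ± 4.60 in normal cells (log2 difference −0.78, adjusted p = 0.0084). HAS2, which makes hyaluronan, had 6.36, 3.75 and 13.4 FPKM in senescent libraries, against 56.9, 20.5 and 20 in normal ones (adjusted p = 0.0206, but 0.0688 without PD-L1-negative replicate 1 and 0.0764 without PD-L1-negative replicate 2). Of 37 collagens and collagen-modifying enzymes, 13 were higher and 7 lower with a median of 0.29. There 4 were lower without PD-L1-negative replicate 1 or 3, and the median was 0.18 without PD-L1-negative replicate 3, 0.17 without normal replicate 2 and 0.19 under equal-sum scaling.

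Most proteases that remodel matrix, and the inhibitors that hold them in check, were higher. Of 43 tested members (48 listed), 26 were higher and 3 lower, with a median log2 difference of 0.80. TIMP1, the tissue inhibitor of metalloproteinases, had 4449, 6288 and 5080.3 FPKM in senescent libraries, against 995, 538 and 664 in normal ones (log2 difference 2.88, SE 0.24, adjusted p = 0.000589). It was among the 10 most abundant genes of these libraries. DPP4, a surface dipeptidyl peptidase, had 96.9, 69.0 and 85.1 FPKM in senescent libraries, against 6.69, 6.28 and 10.8 in normal ones (log2 difference 3.34, SE 0.22). PLAT, tissue plasminogen activator, had 159, 180.2 and 149 FPKM in senescent libraries, against 27.2, 22.7 and 25 in normal ones (log2 difference 2.68, SE 0.12). The libraries of each group lay close together for PLAT. HTRA3, a secreted serine protease, and ADAM19, a membrane metalloproteinase, were lower, with means of 2.23 ± 0.766 and 13.5 ± 0.589 FPKM in senescent cells, against 7.74 ± 0.242 and 23.1 ± 4.19 in normal cells.

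In the insulin-like growth factor system, whose binding proteins sequester or present the growth factors, 11 of 19 tested members were higher and 1 lower, with a median log2 difference of 0.77. IGFBP5 had 730.2, 562 and 957 FPKM in senescent libraries, against 47.6, 76.0 and 181 in normal ones (log2 difference 3.07, SE 0.45). IGFBP3 had 1522, 1267 and 1853 FPKM in senescent libraries, against 287, 233 and 483 in normal ones (log2 difference 2.26, SE 0.27). IGFBP2 and IGFBP6 averaged 83.7 ± 11.6 and 748 ± 135 FPKM in senescent cells, against 9.40 ± 2.90 and 171 ± 21.2 in normal cells, so 4 binding proteins led the list. The member that was lower, the RNA-binding protein IGF2BP2 (log2 difference −0.40, adjusted p = 0.0207), lost its call without PD-L1-negative replicate 1 (0.0767), PD-L1-negative replicate 2 (0.0585) or normal replicate 2 (0.0732).

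Among the FGF, PDGF, HGF and VEGF families, ligands and receptors for growth of mesenchyme and vessels, 17 of 35 tested members were higher and 5 lower, with a median log2 difference of 0.49. The number higher was 10 without PD-L1-negative replicate 1, without PD-L1-negative replicate 2 or without normal replicate 2, and 9 without PD-L1-negative replicate 3. The number lower was 3 without PD-L1-negative replicate 1 or 2 or normal replicate 2, and the median was 0.09 without normal replicate 1. PDGFD, a ligand of the PDGF beta receptor, averaged 5.61 ± 0.615 FPKM in senescent and 1.10 ± 0.535 in normal cells (log2 difference 1.98, adjusted p = 0.00139). PDGFRL, a secreted PDGF receptor-like protein, averaged 4.53 ± 1.06 and 0.316 ± 0.0504 FPKM, and ANGPTL2, an angiopoietin-like ligand, 32.2 ± 5.29 and 9.88 ± 3.73, senescent cells first. Lower were FGF5, which averaged 11.8 ± 1.72 FPKM in senescent and 39.8 ± 12.6 in normal cells, and FGF1, at 2.27 ± 0.637 and 6.44 ± 1.03.

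Chemokines, which recruit leukocytes, were mostly higher, with exceptions among the best known. Of 14 tested members (25 listed), which include the scavenging receptor ACKR3, 9 were higher and 2 lower. Their median log2 difference was 0.91, and 5 were higher without PD-L1-negative replicate 1. Those counts are of the members that passed the filter on level, and CCL7 passed it only through its senescent libraries. CXCL6, a neutrophil attractant, had 112, 61.8 and 88.5 FPKM in senescent libraries, against 6.68, 8.36 and 7.89 in normal ones (log2 difference 3.40, SE 0.21). CCL7, a monocyte attractant, had 3.13, 4.61 and 4.95 FPKM in senescent libraries, against 0.170, 0.863 and 0.212 in normal ones (log2 difference 2.43, SE 0.31), and CXCL14 averaged 8.24 ± 1.88 and 1.65 ± 0.466 FPKM with senescent cells first. CXCL12, the ligand of CXCR4, fell: it had 71.6, 63.5 and 103 FPKM in senescent libraries, against 329, 377 and 247 in normal ones (log2 difference −2.0, SE 0.22, adjusted p = 0.00122). CXCL8, interleukin-8, a canonical factor of the senescent secretome, was also lower, at 63.2, 50.1 and 46.5 FPKM in senescent libraries against 83.0, 70.7 and 73.1 in normal ones (log2 difference −0.51, adjusted p = 0.0227). That call was lost without PD-L1-negative replicate 2 (0.0721), PD-L1-negative replicate 3 (0.0769), normal replicate 1 (0.0556) or normal replicate 2 (0.0533). The scavenging receptor ACKR3 averaged 14.0 ± 4.17 FPKM in senescent and 3.84 ± 2.86 in normal cells (adjusted p = 0.0182), and its call was lost without PD-L1-negative replicate 1 (0.0598), PD-L1-negative replicate 3 (0.0629) or normal replicate 2 (0.0572).

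IL6, a secreted cytokine of the same secretome, had 401, 336 and 368 FPKM in senescent libraries, against 69.3, 133 and 248 in normal ones (log2 difference 1.47, SE 0.40, adjusted p = 0.0235). The senescent libraries lay close together and the normal ones were spread over more than 3-fold. The call was lost without PD-L1-negative replicate 1 (0.0779), PD-L1-negative replicate 2 (0.0684), PD-L1-negative replicate 3 (0.0648) or normal replicate 2 (0.0714). Among NF-kB subunits and the genes that NF-kB feeds back through, 15 of 32 tested were higher and 3 lower, with a median log2 difference of 0.72, and 9 were higher without PD-L1-negative replicate 1 or without normal replicate 2. SOD2, the mitochondrial superoxide dismutase, had 462, 359.6 and 481 FPKM in senescent libraries, against 53.3, 74.0 and 107 in normal ones (log2 difference 2.51, SE 0.25, adjusted p = 0.000958). TNFAIP3, the ubiquitin editor A20 that restrains NF-kB, averaged 27.0 ± 3.42 FPKM in senescent and 5.81 ± 1.08 in normal cells. ICAM1, an adhesion ligand for leukocytes, averaged 71.6 ± 11.4 and 18.1 ± 12.4 FPKM, and the acute-phase protein SAA1 4.78 ± 0.724 and 0.747 ± 0.752, senescent cells first. The adaptor MYD88 was lower (log2 difference −0.55, adjusted p = 0.0143), without a call when PD-L1-negative replicate 1 (0.0518) or normal replicate 2 (0.0616) was left out. The signal adaptor TRAF2 averaged 3.56 ± 0.467 FPKM in senescent and 7.48 ± 3.11 in normal cells (log2 difference −0.91, adjusted p = 0.0298), and was not called when any single PD-L1-negative library or normal replicate 2 was left out (0.0582 to 0.1).

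Of 23 tested complement and coagulation regulators (30 listed), 14 were higher, 1 was lower and 8 were not called, with a median log2 difference of 0.96. Besides C3 and SERPING1, C1S, a protease of the first component, had 193, 164 and 237 FPKM in senescent libraries, against 31.7, 35.4 and 64.1 in normal ones (log2 difference 2.22, SE 0.27). CLU, clusterin, which blocks the terminal complex, had 38.3, 34.3 and 35.0 FPKM in senescent libraries, against 5.67, 6.46 and 7.23 in normal ones (log2 difference 2.39, SE 0.12). Components and inhibitors were thus both among the genes higher. The thrombin receptor F2R had a log2 difference of −0.35 (adjusted p = 0.03), and its call was lost under median-of-ratios (0.0622) or quantile scaling (0.0924) and without PD-L1-negative replicate 1 (0.103), PD-L1-negative replicate 2 (0.0763) or normal replicate 2 (0.103).

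In the prostaglandin pathway, 9 of 19 tested members were higher and 2 lower, with a median log2 difference of 0.40. PTGES, the inducible terminal synthase of prostaglandin E2, had 24.0, 22.9 and 41.2 FPKM in senescent libraries, against 3.30, 6.32 and 11.9 in normal ones (log2 difference 2.07, SE 0.42). PTGDS, which makes prostaglandin D2, and AKR1C3, a ketosteroid and prostaglandin F synthase, averaged 11.5 ± 3.20 and 10.9 ± 1.18 FPKM in senescent cells, against 1.40 ± 1.83 and 2.19 ± 2.14 in normal cells. The other 2 enzymes that make prostaglandin E2, PTGES3 and PTGES2, were lower (log2 differences −0.65 and −0.45, adjusted p = 0.0182 and 0.0221). Both of these lost their calls without PD-L1-negative replicate 1 (0.0739 and 0.0704), PD-L1-negative replicate 3 (0.0517 and 0.0795) or normal replicate 2 (0.06 and 0.0719).

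At the cell surface, 6 of 21 tested genes of MHC class I and peptide loading were higher and 7 lower, with a median log2 difference of −0.15. HLA-E, a ligand of an inhibitory NK cell receptor, had 116, 136 and 119 FPKM in senescent libraries, against 50.4, 55.6 and 68.3 in normal ones (log2 difference 1.09, SE 0.14). B2M, the light chain of class I, had 1390.0, 1512 and 1504 FPKM in senescent libraries, against 768, 707 and 807 in normal ones (log2 difference 0.95, SE 0.11). The peptide transporter subunit TAP2 and the chaperone CALR were lower, averaging 8.08 ± 0.830 and 704 ± 99.6 FPKM in senescent cells, against 14.7 ± 2.0 and 1079.6 ± 77.6 in normal cells. PSMB9, an immunoproteasome subunit, had the largest fall among called members, at 4.52, 2.65 and 2.95 FPKM in senescent libraries against 3.99, 10.4 and 9.03 in normal ones. Its groups overlapped, and its call (log2 difference −1.03, adjusted p = 0.0465) was lost when any library other than normal replicate 1 was left out (0.0595 to 0.152) and under median-of-ratios (0.0597) or quantile scaling (0.0581). The number lower was 3 without PD-L1-negative replicate 1 or normal replicate 2, and 4 without normal replicate 3. Of 21 surface proteins linked to senescence in earlier work, 10 were higher and 4 lower, and 1 was lower without PD-L1-negative replicate 1 and 2 without PD-L1-negative replicate 3. The median of this list was 0.18, and it was 0.07 without normal replicate 2 or under equal-sum scaling and 0.30 without normal replicate 1. The members lower included OXTR and the receptor NOTCH1, at 2.82, 2.31 and 4.64 FPKM in senescent libraries against 6.26, 5.91 and 8.97 in normal ones (log2 difference −1.03, adjusted p = 0.0162, but 0.0627 and 0.0591 without PD-L1-negative replicates 1 and 2). PLD3, a lysosomal exonuclease, and ARMCX3, a mitochondrial outer membrane protein, averaged 213 ± 26.4 and 54.3 ± 3.98 FPKM in senescent cells, against 57.4 ± 13.2 and 20.2 ± 6.70 in normal cells.

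**Figure D2:**
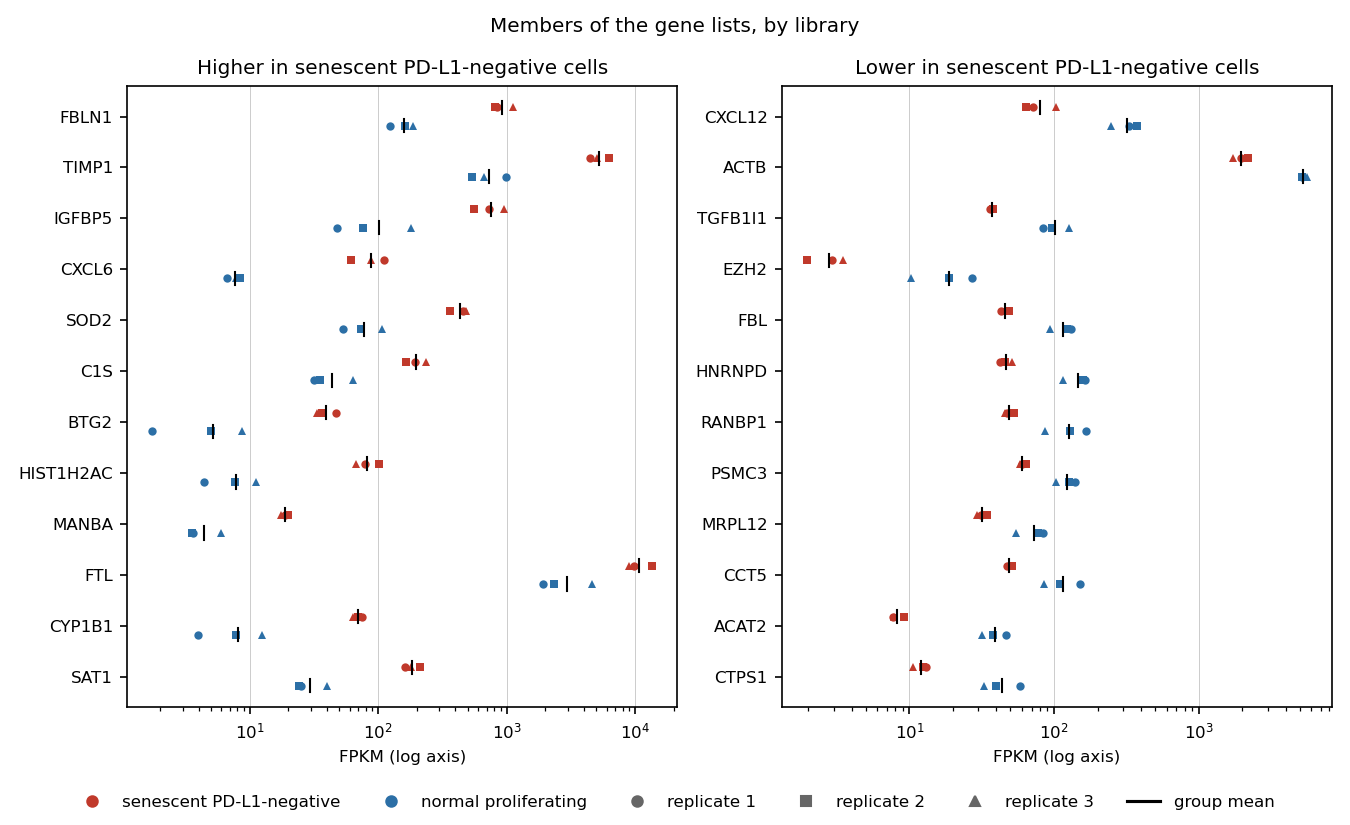
FPKM on a log axis of 24 members of the gene lists, 12 higher and 12 lower in senescent PD-L1-negative cells, with 1 point per library, senescent PD-L1-negative in red above normal proliferating in blue, and a black tick at each group mean. The groups do not overlap for any of them, as for 4973 of all 5001 called genes. The senescent points lie closer together than the normal ones for CYP1B1 and RANBP1.

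Of 45 tested targets that p53 activates (46 listed), 24 were higher, 1 was lower and 20 were not called, with a median log2 difference of 0.64. CDKN1A, which encodes the CDK inhibitor p21, had 542, 686 and 579 FPKM in senescent libraries, against 109.9, 214 and 311 in normal ones (log2 difference 1.62, SE 0.34, adjusted p = 0.00954). BTG2, an antiproliferative co-factor of mRNA deadenylation, had 46.7, 36.7 and 33.5 FPKM in senescent libraries, against 1.75, 5.0 and 8.69 in normal ones (log2 difference 3.01, SE 0.46). In both genes normal replicate 3 was the highest of the normal libraries. GDF15, a stress hormone, averaged 89.8 ± 7.04 FPKM in senescent and 20.3 ± 14.6 in normal cells, and the decoy receptor TNFRSF10C 6.87 ± 0.712 and 1.39 ± 0.582. The target that was lower was AEN, an apoptosis-enhancing nuclease (log2 difference −0.68, adjusted p = 0.00295).

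Regulators of G1 were mixed. Of 25 tested CDK inhibitors, pocket proteins, their partners and G1 cyclins, 6 were higher and 12 lower, with a median log2 difference of −0.33, and the number lower was 6 without PD-L1-negative replicate 1 or normal replicate 2 and 7 without PD-L1-negative replicate 2. The INK4 inhibitors CDKN2C and CDKN2D had means of 5.01 ± 0.571 and 3.72 ± 0.727 FPKM in senescent cells, against 25.1 ± 13.3 and 13.5 ± 6.50 in normal cells (adjusted p = 0.00528 and 0.00739). CDKN2A, whose rows sum the p16 and ARF products, had 10.8, 14.6 and 15.2 FPKM in senescent libraries, against 8.99, 12.2 and 12.0 in normal ones. These groups overlapped (log2 difference 0.27, SE 0.18, adjusted p = 0.241), and the difference was 0.42 without PD-L1-negative replicate 1 and 0.13 without normal replicate 1, without a call in either. LIN9, a subunit of the MuvB complex that governs cell cycle genes, averaged 0.638 ± 0.00485 FPKM in senescent and 3.99 ± 2.45 in normal cells. The pocket protein RBL1 averaged 1.89 ± 0.480 FPKM in senescent and 7.23 ± 4.38 in normal cells (adjusted p = 0.0177, but 0.0728 without PD-L1-negative replicate 2 and 0.0569 without normal replicate 2).

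Genes linked to quiescence and FOXO factors were largely higher: 15 of 25 tested (32 listed), with 2 lower and a median log2 difference of 0.88. Next to TXNIP, SEPP1, the secreted selenium carrier selenoprotein P, had 18.9, 17.9 and 21.0 FPKM in senescent libraries, against 2.0, 1.88 and 2.94 in normal ones (log2 difference 2.85, SE 0.16). GAS6, a ligand of TAM receptors first found in growth-arrested cells, averaged 649.6 ± 98.4 FPKM in senescent and 189.5 ± 11.1 in normal cells, and PIK3IP1, an inhibitor of PI3 kinase, 7.17 ± 0.585 and 1.51 ± 0.589. The glucocorticoid-responsive co-chaperone FKBP5 and the transcription factor KLF6 were lower, averaging 2.64 ± 0.178 and 23.2 ± 1.56 FPKM in senescent cells, against 9.35 ± 3.25 and 50 ± 8.43 in normal cells. AP-1 and immediate early factors gave 5 of 29 higher and 1 lower, a share of 17.2% near the background of 18.1%, although their median was 0.71. This list rested on which normal libraries were used: 15 were higher without normal replicate 3, 3 without PD-L1-negative replicate 2, and the median was 0.14 without normal replicate 1. ATF3, a stress-induced factor, averaged 90.1 ± 15.3 FPKM in senescent and 21.9 ± 11.5 in normal cells, and MAFF 51.1 ± 6.14 and 25.2 ± 7.13. The mRNA decay factors ZFP36 and ZFP36L1 were higher (log2 differences 1.24 and 1.09), but ZFP36 lost its call without PD-L1-negative replicate 2 (0.055), and ZFP36L1 without PD-L1-negative replicate 2 (0.0645), PD-L1-negative replicate 3 (0.0595) or normal replicate 2 (0.0527). The member lower was BATF3, a dimer partner of JUN, at 0.479 ± 0.186 FPKM in senescent and 2.13 ± 0.572 in normal cells.

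In the nucleus, none of 45 tested genes of the lamina, high mobility group proteins and chromatin regulators was higher and 28 were lower, with a median log2 difference of −0.69, and 16 were lower without PD-L1-negative replicate 1 and 15 without normal replicate 2. EZH2, the methyltransferase of Polycomb complex 2, had 2.92, 1.96 and 3.49 FPKM in senescent libraries, against 27.3, 18.8 and 10.2 in normal ones (log2 difference −2.47, SE 0.35, adjusted p = 0.00241). PHF19, a Polycomb-associated reader of methylated histone, averaged 8.71 ± 1.27 FPKM in senescent and 48.2 ± 20.6 in normal cells. For these genes, as for LMNB1 and TMPO, the lowest normal library was replicate 3, which also had the lowest MKI67.

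Histone genes that are normally made in S phase went the other way from the replication genes. Of 35 listed, 18 passed the filter on level, and 16 of these were higher and 0 lower, with a median log2 difference of 2.01. Because a gene near 0 in normal cells passed only where senescent cells were high, that count describes the members that passed and not the family. HIST1H2AC had 78.4, 101 and 67.3 FPKM in senescent libraries, against 4.42, 7.72 and 11.2 in normal ones (log2 difference 3.39, SE 0.31). HIST1H4H had 15.8, 22.4 and 10.7 FPKM in senescent libraries, against 1.23, 0.308 and 0.381 in normal ones (log2 difference 3.91, SE 0.35). HIST1H2BD averaged 41.7 ± 10.6 and 4.87 ± 1.62 FPKM, and HIST1H2BG 8.65 ± 2.44 and 0.817 ± 0.474, senescent cells first. The libraries were made from polyA-selected RNA, whereas most transcripts of these genes end in a stem-loop without a polyA tail, so the values do not measure total histone mRNA.

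Lysosomal genes, the source of the enzyme stain long used to score senescence, were higher in number: 35 of 63 tested, with 4 lower and a median log2 difference of 0.46. MANBA, beta-mannosidase, had 19.0, 20 and 17.5 FPKM in senescent libraries, against 3.59, 3.56 and 5.99 in normal ones (log2 difference 2.02, SE 0.19). CTSF, cathepsin F, averaged 18.1 ± 0.888 FPKM in senescent and 4.26 ± 0.814 in normal cells, FUCA1, alpha-fucosidase, 9.31 ± 1.82 and 2.41 ± 0.643, and IDUA, alpha-iduronidase, 16.1 ± 2.35 and 4.61 ± 1.39. PPT1, palmitoyl-protein thioesterase, fell against the list: it had 11.2, 11.0 and 11.1 FPKM in senescent libraries, against 37.2, 39.3 and 37.8 in normal ones (log2 difference −1.74, SE 0.09, adjusted p = 0.000176). Its libraries lay close together within both groups. CLN3, a lysosomal membrane protein mutated in the same group of storage diseases as PPT1, was lower too, at 4.92 ± 0.467 and 12.2 ± 1.27 FPKM with senescent cells first. Of 43 autophagy genes 22 were higher and 2 lower with a median of 0.35, and 12 were higher without PD-L1-negative replicate 1 or 2, 13 without PD-L1-negative replicate 3 and 9 without normal replicate 2.

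Iron storage transcripts stood out among genes of metal handling, of which 10 of 24 tested were higher and 3 lower, with a median log2 difference of 0.62 and 6 higher without normal replicate 2. FTL, ferritin light chain, had 9844, 13644 and 8968 FPKM in senescent libraries, against 1922, 2339 and 4605 in normal ones (log2 difference 1.95, SE 0.33, adjusted p = 0.00459). FTH1, ferritin heavy chain, had 6911, 8474 and 6857 FPKM in senescent libraries, against 1691, 1736 and 3025 in normal ones (log2 difference 1.83, SE 0.24). Both were highest in normal replicate 3 among the normal libraries, yet no library of a group overlapped the other group. HEPH, a copper-dependent ferroxidase for iron export, averaged 16.5 ± 2.67 FPKM in senescent and 4.59 ± 1.19 in normal cells, and the zinc importer SLC39A8 4.0 ± 0.877 and 1.29 ± 0.145. The metallothionein MT1M and STEAP3, a ferrireductase of transferrin endosomes, were lower, with means of 0.589 ± 0.0555 and 2.54 ± 0.0948 FPKM in senescent cells, against 3.93 ± 1.09 and 8.78 ± 0.284 in normal cells.

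Of 34 tested genes of cholesterol synthesis and uptake (36 listed), 19 were lower and 9 higher, with a median log2 difference of −0.50, and 12 were lower without PD-L1-negative replicate 1 or replicate 3. The number higher was 4 without PD-L1-negative replicate 1 and 5 without normal replicate 2. ACAT2, which makes acetoacetyl-CoA, had 7.73, 9.22 and 7.80 FPKM in senescent libraries, against 46.5, 37.9 and 31.9 in normal ones (log2 difference −2.15, SE 0.15), and its groups lay far apart. EBP, an enzyme of the late pathway, averaged 7.92 ± 1.06 FPKM in senescent and 22.8 ± 5.60 in normal cells. ABCA1, which exports cholesterol, and CH25H, which makes 25-hydroxycholesterol, were higher, with means of 11.8 ± 2.63 and 10.2 ± 0.957 FPKM in senescent cells, against 1.66 ± 1.10 and 0.617 ± 0.459 in normal cells.

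Among apolipoproteins and genes of steroid and retinoid metabolism, 16 of 28 tested (34 listed) were higher and 2 lower, with a median log2 difference of 1.13. DHRS3, which reduces retinaldehyde, had 45.1, 57.1 and 54 FPKM in senescent libraries, against 1.60, 3.68 and 12.1 in normal ones (log2 difference 3.45, SE 0.57). CYP1B1, a steroid and xenobiotic hydroxylase, had 74.5, 69.1 and 64.3 FPKM in senescent libraries, against 3.95, 7.85 and 12.5 in normal ones (log2 difference 3.15, SE 0.35). In both genes the normal libraries differed among themselves more than the senescent ones. The 2 members lower were the glucocorticoid receptor NR3C1 (log2 difference −0.54, adjusted p = 0.0154) and APOC1 (−0.97, adjusted p = 0.048). NR3C1 lost its call without PD-L1-negative replicate 1 (0.0568), PD-L1-negative replicate 2 (0.0529) or normal replicate 2 (0.0634). APOC1 lost it without any PD-L1-negative library (0.0756, 0.139 and 0.124 for replicates 1, 2 and 3) or without normal replicate 1 (0.0882) or 3 (0.0671), where its log2 difference was −0.64. The APOC1 call was also lost with a pseudocount of 1 (0.0517), no filter (0.082), median-of-ratios scaling (0.0587), all 9 libraries in the fit (0.0543) and sample weights, which gave −0.33 (0.242).

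The contractile and actin cytoskeleton was lower, in 28 of 49 tested genes with 3 higher and a median log2 difference of −0.67. ACTB, beta-actin, often used as a constant reference gene, had 1964, 2202 and 1728 FPKM in senescent libraries, against 5160.4, 5165 and 5620.5 in normal ones (log2 difference −1.44, SE 0.14, adjusted p = 0.000876). GAPDH, another common reference, had 2802, 3660.0 and 2486 FPKM in senescent libraries, against 2719.6, 2753 and 2627 in normal ones, and those groups overlapped (log2 difference 0.12, adjusted p = 0.563). The GAPDH value was −0.16 under quantile scaling, −0.03 without PD-L1-negative replicate 2 and 0.25 without PD-L1-negative replicate 3, with no call in any of these. SRF, the transcription factor of actin genes, had 14.6, 15.3 and 13.1 FPKM in senescent libraries, against 29.7, 35.1 and 47.2 in normal ones (log2 difference −1.33, SE 0.17). TGFB1I1, the focal adhesion protein Hic-5, averaged 37.3 ± 0.978 FPKM in senescent and 102 ± 21.4 in normal cells. Here normal replicate 3 was the highest of the normal libraries, unlike for LMNB1 and MKI67. MYLK, myosin light chain kinase, was higher (log2 difference 0.80, adjusted p = 0.0335), but lost its call without each library other than normal replicate 3 (adjusted p = 0.0542 to 0.104) and under quantile (0.0505) or equal-sum scaling (0.0608). SYNPO2, an actin-binding protein of muscle, had the largest rise among called members, at 9.65, 5.91 and 6.28 FPKM in senescent libraries against 1.73, 3.44 and 5.03 in normal ones (log2 difference 1.06, adjusted p = 0.0389). Its call was lost without each library other than normal replicate 3 (0.0601 to 0.131) and under equal-sum scaling (0.0592). The number higher in this list was 0 without PD-L1-negative replicate 1 or 2 or normal replicate 2, or under equal-sum scaling, and 6 without normal replicate 3.

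**Figure D3:**
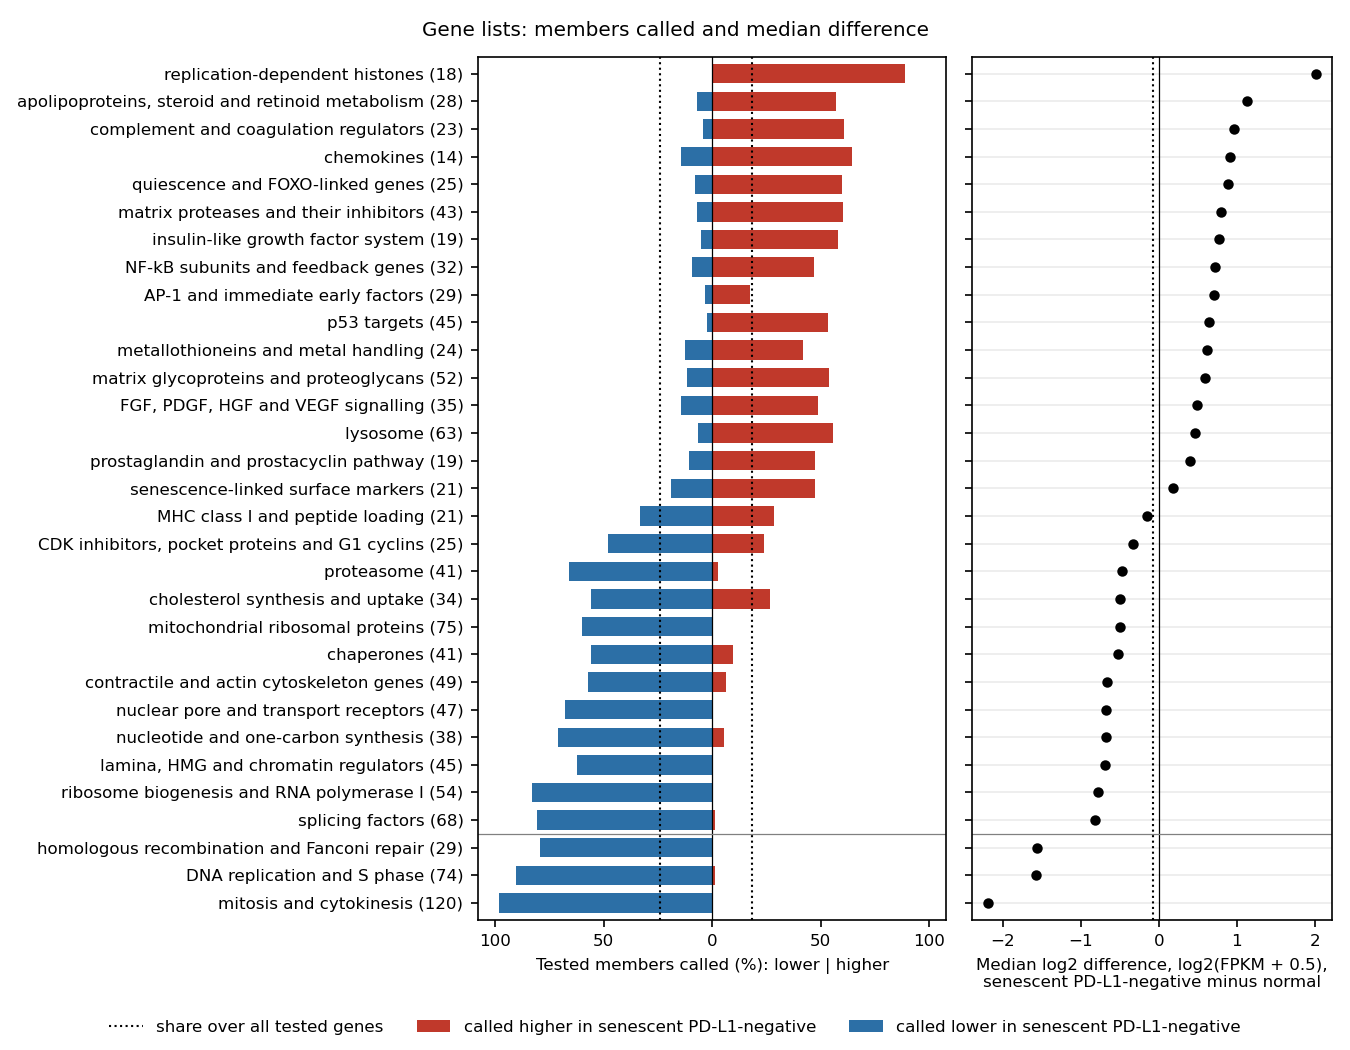
For each list described and, below the grey line, for the 3 cell cycle lists, the left panel gives the percentage of tested members called higher (red) and lower (blue) in senescent PD-L1-negative cells, and the right panel the median log2 difference. Numbers of tested members are in brackets, and dotted lines mark all 11775 tested genes (18.1% higher, 24.3% lower, median −0.07), which AP-1 and immediate early factors at 17.2% higher do not exceed.

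Most genes that assemble ribosomes were lower. Of 54 genes of ribosome biogenesis and RNA polymerase I, all tested, 45 were lower and 0 higher (83.3% lower against 24.3% of all genes), with a median log2 difference of −0.78. FBL, the nucleolar methyltransferase fibrillarin, had 42.8, 49.2 and 45.9 FPKM in senescent libraries, against 131, 122 and 93.4 in normal ones (log2 difference −1.31, SE 0.14, adjusted p = 0.00123). RRS1 and EBNA1BP2, assembly factors of the large subunit, averaged 8.88 ± 1.29 and 33.1 ± 3.04 FPKM in senescent cells, against 25.4 ± 4.28 and 86.7 ± 19.9 in normal cells, and UTP20, of the small subunit processome, 3.24 ± 0.785 against 8.17 ± 0.896. The proteins of the cytosolic ribosome did not follow their assembly factors. Of 80 tested 16 were higher and 1, RPL22L1, lower, with a median of 0.23. The share higher was near the 18.1% of all genes, and the share lower was below the 24.3% of all genes. RPL22L1, a paralog of RPL22 that is named because it was the exception, after its values were seen, had 10.6, 13.2 and 11.1 FPKM in senescent libraries, against 39.8, 32.0 and 32.7 in normal ones (log2 difference −1.54, SE 0.13). The ribosomal protein count depended on scaling and on the library: 13 were higher and 12 lower under quantile scaling with a median of −0.00, 28 and 1 under median-of-ratios scaling, 19 and 4 under equal-sum scaling with a median of 0.12, and 7 were higher without PD-L1-negative replicate 3, 4 without normal replicate 1 and 3 without normal replicate 2.

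Splicing factors fell in 55 of 68 tested genes with 1 higher, and the median log2 difference was −0.82. HNRNPD, which binds AU-rich RNA, had 42.2, 46.1 and 51.0 FPKM in senescent libraries, against 165, 158 and 115 in normal ones (log2 difference −1.63, SE 0.16, adjusted p = 0.000876). HNRNPH1 and HNRNPA2B1, regulators of alternative exons, averaged 62.6 ± 6.99 and 105 ± 9.48 FPKM in senescent cells, against 160.5 ± 24.1 and 263 ± 40.2 in normal cells, and SFPQ, a paraspeckle protein, 46.1 ± 6.68 against 129 ± 17.8. The member higher was SRSF5 (log2 difference 0.30, adjusted p = 0.0296), which kept its call only without normal replicate 3 (adjusted p = 0.052 to 0.0967 without any other library) and lost it under equal-sum scaling (0.127). Nuclear pore and transport receptor genes were lower in 32 of 47 tested and higher in 0, with a median of −0.68, and the number lower was 16, 19 and 21 without PD-L1-negative replicates 1, 2 and 3 and 17 without normal replicate 2. RANBP1 and RCC1, partners of the transport GTPase Ran, averaged 48.8 ± 3.72 and 13.6 ± 2.24 FPKM in senescent cells, against 128 ± 39.6 and 36.7 ± 8.44 in normal cells. NDC1, a membrane nucleoporin with the largest fall among called members, had 4.56, 3.83 and 4.52 FPKM in senescent libraries, against 24.0, 12.6 and 6.81 in normal ones (log2 difference −1.47, adjusted p = 0.0206). NUP35, a nucleoporin of the inner ring, averaged 3.83 ± 0.662 FPKM in senescent and 10.4 ± 5.83 in normal cells (adjusted p = 0.0328). Both calls were lost when any single PD-L1-negative library or normal replicate 2 was left out, at 0.0552 to 0.0773 for NDC1 and 0.0695 to 0.115 for NUP35.

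Protein turnover and folding genes were lower as well. Of 41 proteasome genes 27 were lower and 1 higher, with a median log2 difference of −0.47, and 14 were lower without PD-L1-negative replicate 1 and 15 without PD-L1-negative replicate 3. PSMC3, an ATPase of the regulatory cap, had 59.8, 63.9 and 57.9 FPKM in senescent libraries, against 139, 127 and 104 in normal ones (log2 difference −1.01, SE 0.13, adjusted p = 0.00163). PSMA7, of the core's outer ring, averaged 112 ± 8.29 FPKM in senescent and 199.6 ± 16.3 in normal cells. The member higher, PSMD10 or gankyrin, also binds CDK4 and MDM2 (log2 difference 0.29, adjusted p = 0.0427), and lost its call without each library other than normal replicate 1 (adjusted p = 0.0637 to 0.13) and under equal-sum scaling (0.143). Of 41 chaperones 23 were lower and 4 higher, with a median of −0.52. CCT5, of the chaperonin that folds actin and tubulin, had 47.4, 51.1 and 49.0 FPKM in senescent libraries, against 151, 109.5 and 84.6 in normal ones (log2 difference −1.18, SE 0.20). HSPB6, a small heat shock protein of muscle, was higher, at 360.3, 432 and 289.5 FPKM in senescent libraries against 78.9, 89.6 and 112 in normal ones (log2 difference 1.94, SE 0.18).

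Mitochondrial ribosomal proteins, which translate the mitochondrial genome, were lower in 45 of 75 genes and higher in 0, with a median log2 difference of −0.50, and the number lower was 22 without PD-L1-negative replicate 1 and 24 without PD-L1-negative replicate 3 or normal replicate 2. MRPL12 had 31.4, 34.6 and 29.4 FPKM in senescent libraries, against 83.9, 77.7 and 54.8 in normal ones (log2 difference −1.15, SE 0.17). MRPL15 and MRPS7 averaged 10.2 ± 1.07 and 14.5 ± 1.68 FPKM in senescent cells, against 24.5 ± 4.46 and 30.8 ± 2.03 in normal cells. Nuclear-encoded respiratory chain genes were nearer the background, with 19 of 77 lower, 4 higher and a median of −0.14, and the number lower was 4 and 6 without PD-L1-negative replicates 1 and 3 and 12 and 7 without normal replicates 1 and 2.

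Nucleotide and one-carbon synthesis was lower in 27 of 38 genes and higher in 2, with a median log2 difference of −0.68, and 15 were lower without PD-L1-negative replicate 1 and 17 without normal replicate 2. CTPS1, which makes CTP, had 13.1, 12.5 and 10.6 FPKM in senescent libraries, against 58.0, 39.7 and 32.8 in normal ones (log2 difference −1.77, SE 0.21, adjusted p = 0.00138). PFAS, of purine synthesis, and SHMT1, which feeds one-carbon units from serine, averaged 2.60 ± 0.319 and 1.76 ± 0.230 FPKM in senescent cells, against 10.9 ± 3.96 and 7.03 ± 2.77 in normal cells. Of the polyamine genes in the list, the spermine synthase SMS was lower, at 30.6 ± 2.70 FPKM in senescent and 83.6 ± 20.6 in normal cells. SAT1, which acetylates polyamines for breakdown and export, was higher, with 163, 210.1 and 181 FPKM in senescent libraries, against 25, 24.0 and 40.1 in normal ones (log2 difference 2.65, SE 0.21, adjusted p = 0.000448). AK4, a mitochondrial adenylate kinase, was higher as well, at 3.76 ± 1.5 and 0.549 ± 0.0979 FPKM with senescent cells first.

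The remaining lists had 16.7% to 53.8% of their tested members called, against 42.5% of all genes. Glycolysis and pentose phosphate genes gave 6 higher and 4 lower of 34, Wnt genes 6 and 3 of 29, HOX and positional factors 3 and 2 of 30, Notch genes 3 and 1 of 14, circadian clock genes 3 and 2 of 16, and mTORC1 and AMPK genes 4 and 2 of 29. Interferon-stimulated genes gave 7 higher and 3 lower of 34, immune checkpoint and NK ligands 6 and 6 of 26, and BCL-2 family and caspase genes 8 and 6 of 26. Interleukins and receptors gave 11 higher and 2 lower of 33, and TGF-beta, activin and BMP genes 12 and 3 of 41. Antioxidant genes gave 18 higher and 3 lower of 45, tubulin and cilium genes 14 and 6 of 44, and guidance genes 10 and 5 of 32. YAP and TEAD targets gave 5 higher and 8 lower of 29, integrins and adhesion receptors 6 and 8 of 29, fatty acid genes 7 and 12 of 41, and unfolded protein response genes 7 and 17 of 48. Channels gave 5 higher and 8 lower of 28, intermediate filament and desmosome genes 2 and 5 of 18, and EGF family genes 2 and 2 of 8.

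Many of these small counts moved by more than 1.5 times when a library was left out or the scaling changed. Without PD-L1-negative replicate 1, the number higher was 1 for glycolysis, checkpoint, HOX and Notch genes, 3 for integrins and channels, 4 for interferon-stimulated and fatty acid genes, 5 for BCL-2 genes and 7 for TGF-beta and interleukin genes. Without PD-L1-negative replicate 2 it was 2 for checkpoint and mTORC1 genes, 5 for BCL-2 genes and 10 for antioxidant genes. Without PD-L1-negative replicate 3 it was 1 for HOX and Notch genes, 3 for checkpoint genes and channels, 4 for interferon-stimulated genes and 7 for TGF-beta and interleukin genes. Without normal replicate 2 it was 1 for glycolysis, checkpoint, Notch and EGF genes, 3 for YAP targets, integrins, fatty acid genes and channels, 4 for interferon-stimulated genes, 5 for BCL-2 genes, 7 for interleukin genes and 10 for antioxidant genes. Interferon-stimulated genes turned to 4 higher and 9 lower without normal replicate 1, and to 4 and 6 under equal-sum scaling. Without normal replicate 3, 6 circadian genes were higher and 5 lower, and 12 unfolded protein response genes were higher. Under equal-sum scaling HOX genes gave 1 higher and 8 lower, 3 checkpoint genes were higher, and 7 glycolysis genes were lower, as under quantile scaling. The number lower was 2 for BCL-2 genes without PD-L1-negative replicate 1 and 3 without normal replicate 2, and it was 5 for HOX, interleukin and Wnt genes without normal replicate 3.

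The cell cycle lists were lower nearly throughout. Of 120 genes of mitosis and cytokinesis 118 were lower and 0 higher (98.3%), with a median log2 difference of −2.19. MKI67, a marker of cycling cells, had 3.97, 1.64 and 4.02 FPKM in senescent libraries, against 61.3, 33.4 and 12.7 in normal ones (log2 difference −3.11, SE 0.55, adjusted p = 0.00523). PLK1, the kinase that BI-2536 inhibits, had 9.18, 4.47 and 9.97 FPKM in senescent libraries, against 134, 64.3 and 29.5 in normal ones (log2 difference −3.01, SE 0.53). Of 74 DNA replication and S phase genes 67 were lower and 1 higher, with a median of −1.57, and 38 were lower without PD-L1-negative replicate 2 and 44 without normal replicate 2. RRM2, a ribonucleotide reductase subunit, averaged 14.2 ± 2.43 FPKM in senescent and 98.2 ± 58.5 in normal cells, and MCM5, of the replicative helicase, 8.17 ± 0.603 and 49.8 ± 22.5. The gene higher was CCNE1, the G1/S cyclin E1, at 5.46, 6.03 and 5.49 FPKM in senescent libraries against 4.06, 3.45 and 2.33 in normal ones (log2 difference 0.73, adjusted p = 0.0183), and its call was lost without any PD-L1-negative library or normal replicate 2 (adjusted p = 0.0516 to 0.0655). Of 29 homologous recombination and Fanconi genes 23 were lower and 0 higher, with a median of −1.56, and 15 and 12 were lower without PD-L1-negative replicates 1 and 2 and 12 without normal replicate 2. FANCD2, the ubiquitinated effector of the Fanconi pathway, averaged 1.19 ± 0.378 FPKM in senescent and 8.03 ± 4.48 in normal cells.

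The normal libraries differed among themselves in the same genes. Normal replicate 3 was the normal library nearest to the senescent ones for 1455 of 2137 genes called higher (68.1%) and for 2004 of 2864 called lower (70.0%). Among the senescent libraries 213 genes had an SD of log2 levels above 0.5, and among the normal ones 1183 did. Set against each normal library alone, the median of the mitosis list was −3.13, −2.26 and −1.24 for replicates 1, 2 and 3, and that of ribosome biogenesis −1.06, −0.71 and −0.58. The order was not shared by every list. The contractile list had −0.52, −0.52 and −0.75, the cholesterol list −0.30, −0.39 and −0.56, and the matrix glycoprotein list 0.71, 0.82 and 0.61. AP-1 and immediate early factors turned, with 1.52, 0.44 and −0.20, and so did MHC class I genes, with 0.03, −0.14 and −0.20. The part that the proliferation of each normal library had in the other lists was not tested.

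**Figure D4:**
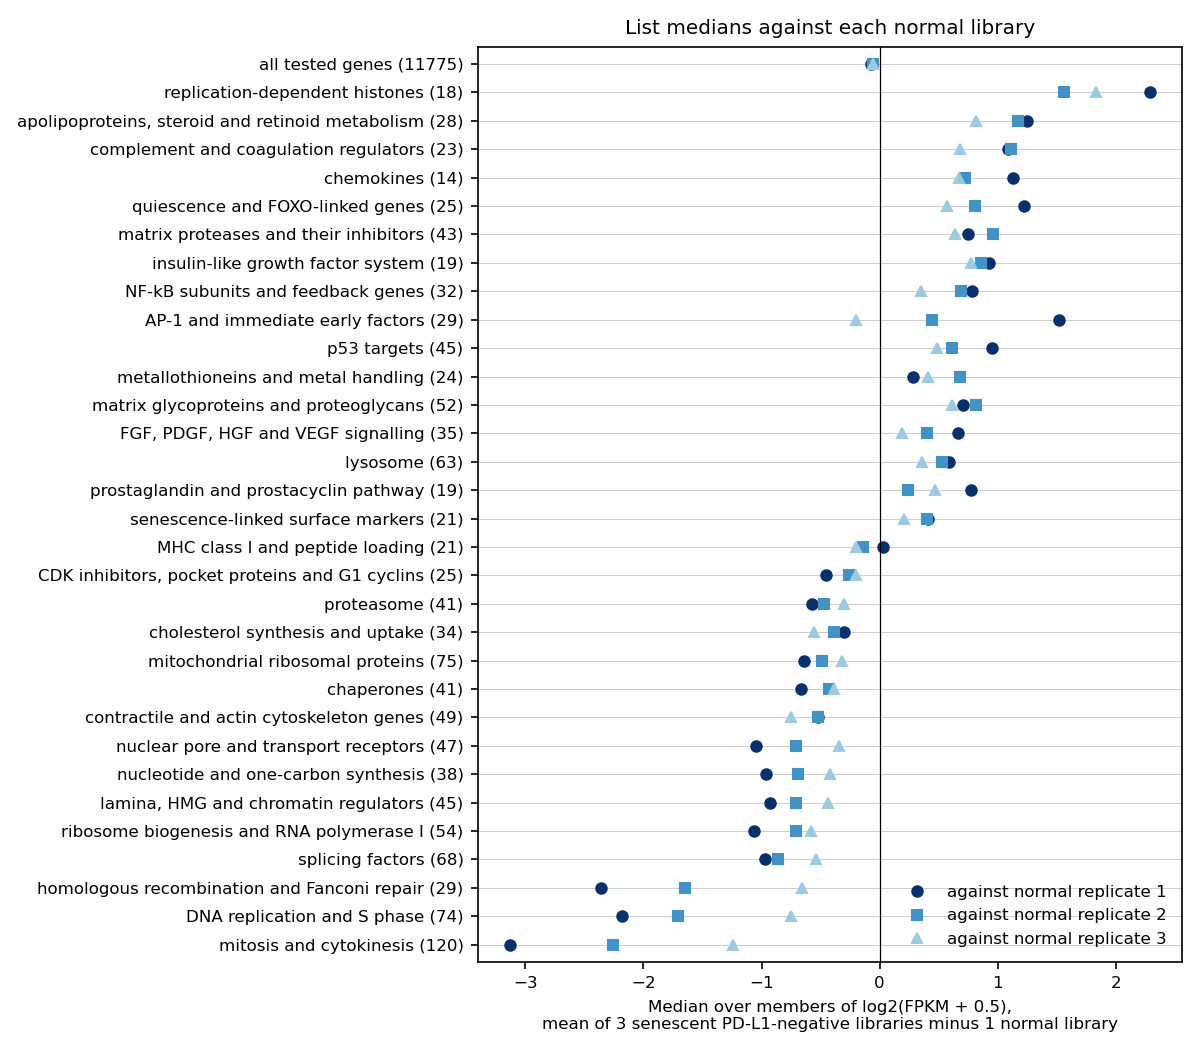
Median over the members of each list of the mean log2(FPKM + 0.5) of the 3 senescent PD-L1-negative libraries minus that of 1 normal library, with a point for each normal library. Among the 28 lists above the cell cycle lists, the medians against all 3 normal libraries have the same sign except for AP-1 and immediate early factors and for MHC class I, and normal replicate 3 gives the smallest difference for the mitosis list (−1.24).

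The comparison shares its normal libraries with the senescent PD-L1-positive fraction, so only the direct contrast of the fractions bears on whether a difference is particular to PD-L1-negative cells. Over the same 11775 genes limma called 0 genes between PD-L1-negative and PD-L1-positive senescent cells with all 9 libraries in the fit, and 178 had an unadjusted p under 0.05. With only the 6 senescent libraries 1 gene, RNF5, was called (log2 difference 1.52, SE 0.11, adjusted p = 0.0204), named after its values were seen. RNF5, a ubiquitin ligase of the endoplasmic reticulum, had 1.04, 0.879 and 0.894 FPKM in PD-L1-negative libraries and was listed at 0 in all 3 PD-L1-positive ones. Its level in normal libraries was 2.13, 2.17 and 0.897 FPKM. Its 7 transcript rows repeat 1 accession, 6 of them at 0 in every library, so reads could be split among copies and a listed 0 can be a failed estimate. Of the 24 genes with the largest rises and falls, negative minus positive log2 differences ran from −0.62 for TRIP13 (SE 0.38) to 0.98 for COL15A1 (SE 0.51), each with an adjusted p of 1. CD274 had 1.23, 1.32 and 1.38 FPKM in PD-L1-positive libraries, above all 3 PD-L1-negative and below all 3 normal libraries.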

How the data were processed

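RNA was polyA-selected and sequenced with a directional kit, per the labels' protocols. The authors deposited 1 table of FPKM for 52741 transcript rows in 9 libraries. The program that made the FPKM is not given in the sources used here. The submitters' processing notes name STAR 2.5.2a, HTSeq 0.11.2, DESeq2 1.22.2 and the hg19 build, without their roles. Rows were summed per gene symbol. Among them 3305 rows repeat an accession, and 129 tested genes have such rows. FPKM are not counts, so log2(FPKM + 0.5) was fitted with limma 3.58.1 (R 4.3.3; lmFit, eBayes with intensity trend) on the 6 libraries of the comparison, with no replicate block, and p-values were adjusted by Benjamini-Hochberg over 11775 genes. The contrast of senescent fractions used all 9 libraries. The fit was also run on simulated data with the same spread in both groups for each gene. That run therefore did not test unequal spreads such as those of these groups.

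Total fragments were estimated from the smallest steps between FPKM values of 7210 genes with 1 transcript of 1500 to 6000 bases, with GRCh38 lengths applied to hg19 files, so the estimate (median 14350000) is approximate, and no interval was computed from it. Small RNA genes took 0.552% to 4.73% of FPKM per library.

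The genes, lists and comparison were chosen with earlier results of these data known. Named genes are the 12 largest rises and 12 largest falls among called protein-coding genes without overlap outside the cell cycle lists, up to 4 called members in the main direction and 2 against it in each list described, and CD274, MKI67, CDKN1A, CDKN2A, LMNB1, IL6, ACTB and GAPDH. Not every gene that this rule names is reported here. A list was described where at least 8 members were tested and over 60% were called or the median differed by at least 0.4 on the log2 scale. Alternatives covered the pseudocount, filter, scaling, rows, trend, sample weights, threshold, replicate block, all libraries in the fit and leaving out each library. The second deposited table, of regulator predictions, was not used here. Python 3.11.15 with pandas 2.3.3 and numpy 2.4.6 handled the tables, and matplotlib 3.10.9 the figures.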

Additional observations from a re-analysis of the deposited data

How the results depend on the processing

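Of 5001 calls, 58.3% to 99.7% were also made, all in the same direction, under the 19 settings that changed the values, the model or the libraries and kept the threshold. Sample weights gave 3328 genes higher and 4303 lower, an adjusted p under 0.01 gave 1034 and 1319, and a further minimum of 1 on the log2 scale gave 672 and 773. Leaving out 1 library gave 1283 to 2531 higher and 1638 to 3283 lower. Calls numbered 2921 without PD-L1-negative replicate 1, 3001 without normal replicate 2 and 5814 without normal replicate 3, and fewer samples alone lower the number of calls. Of 2128 list counts recomputed, 305 moved by over 1.5 times. GAPDH, not called, was −0.16 under quantile normalization and −0.03 and 0.25 without PD-L1-negative replicates 2 and 3, and the cause was not tested. Between the senescent fractions, the fit on only the 6 senescent libraries called 1 gene, against 0 in the fit on all 9. CD274 was −2.07 from its main transcript alone.

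Replicate numbers are shared between groups, but deviations of same-numbered libraries correlated at −0.012, 0.12 and 0.018, so the numbers were not taken to pair the samples. With the replicate block 1928 genes were higher and 2597 lower, 4329 of these calls were shared with the fit without the block, F2R, PSMB9, PSMD10, SRSF5 and SYNPO2 were not called, and 0 genes were called between the senescent fractions. Counts were not used here, so counting error at low levels was not computed.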

Other observations

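Some of the most abundant transcripts differed between the groups. Others were not called in limma, including BCYRN1 (adjusted p = 0.153), MIR6723 (0.499) and COL1A1 (0.0821). FTL averaged 10819 FPKM in senescent PD-L1-negative and 2955 in normal cells, FTH1 7414 and 2150.5, and COL1A2, a chain of type I collagen, 4420.0 and 2563. In the other direction, ACTG1, gamma-actin, averaged 1775 FPKM in senescent and 3892 in normal cells, and TMSB10, an actin monomer-binding thymosin, 2702 and 4274. The 10 most abundant genes of each library took 12.8%, 13.5% and 12.9% of all FPKM in senescent libraries, against 8.40%, 10.6% and 12.4% in normal ones. BCYRN1, MIR6723, COL1A1, COL1A2, ACTG1 and TMSB10 were named after their values were seen.

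Gene families grouped by the start of their symbols, a grouping made after the values were seen, differed in their counts. DEAD-box helicases (symbols starting DDX) had 20 of 37 lower (54.1%) and 1 higher (2.70%). RNA-binding motif genes (RBM) had 18 of 34 lower (52.9%) and 2 higher (5.88%). RAB GTPases, which direct vesicle traffic, had 16 of 54 higher (29.6%) and 6 lower (11.1%). Zinc finger genes (ZNF) had 44 of 371 higher (11.9%) and 34 lower (9.16%), below the 18.1% and 24.3% of all genes. Of 610 tested genes with non-coding rows only, 117 were higher (19.2%, near the 18.1% of all genes) and 48 lower (7.87%, against 24.3%).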
